A study of Mus musculus with 8 samples.

Results

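Macrophages of the lymph node were followed through 10 genes of a 770-gene NanoString immune panel: the growth factor gene Csf1 and its receptor gene Csf1r, the general macrophage genes Cd68 and Emr1, and the receptors Siglec1, Marco, Mrc1, Cd163, Msr1 and Cd36. The genes were listed by name as macrophage markers and scavenger receptors, with earlier results of these data known, and all 10 were on the panel. RNA came from mouse inguinal lymph nodes, in 4 libraries titled as tumor-bearing after spread of lymphoma cells through the lymphatics and 4 titled as tumor-free. The lymphoma is Eµ-myc, a mouse B cell tumor in which a Myc transgene is driven by the immunoglobulin heavy chain enhancer. The sources used here do not give the strain, sex or age of the mice or the time after cell transfer. Nor do they say whether each node was from a mouse of its own, and p-values therefore cover only variation among these libraries, part of which may be technical.

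Myc, read first as a check of the titles, went against them. Its deposited values were 3147, 2996, 3281 and 3090 in replicates 1 to 4 labelled tumor-bearing, against 29389, 31449, 9250 and 33147 in those labelled tumor-free (log2 difference -2.88, limma adjusted p = 0.00987). All groups are therefore called by their labels, and every signed value below changes sign if the labels are exchanged. Labelled tumor-free replicate 3 stood apart from the rest of its group, with the lowest Myc and the highest summed level of 9 T cell genes, 29834 against 5078 to 12166 in replicates 1, 2 and 4. For each macrophage gene that was tested, the difference with and without it is given below.

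Lymph node macrophages stand where lymph enters and leaves the node. Those of the subcapsular sinus carry the sialic acid lectin encoded by Siglec1 (CD169) and lack the F4/80 protein encoded by Emr1 (now Adgre1), whereas those of the medullary sinuses carry both, and those of the medullary cords carry F4/80. Their survival depends on signalling through the Csf1 receptor, and stromal and lymphatic endothelial cells of the node make Csf1. Scavenger receptors such as Marco and Msr1 take up modified lipoproteins, microbes and debris from the lymph.

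Of the 10 genes, 5 fell in the libraries labelled tumor-bearing: Marco, Msr1, Csf1, Emr1 and Csf1r, with log2 differences from -1.60 to -0.73. The other 4 that passed the filter on low values, Cd68, Siglec1, Mrc1 and Cd36, were not called, and Cd163 was too low to be tested. Msr1 passed that filter only through the libraries labelled tumor-free, which leaves 4 called among the 8 other kept genes; with no filter its log2 difference was -1.52 (limma adjusted p = 0.0237). The filter asked for a deposited value of 20 or more in at least 4 of the 8 libraries and kept 9 of the 10 genes and 609 of the panel's 770. Among the 609, limma called 10.7% lower and 27.6% higher, 38.3% in either direction, at an adjusted p under 0.05 (Benjamini-Hochberg over all kept genes). With limma, 6.24% were called lower and 59.6% higher after scaling on the 20 reference genes, and 19.9% lower and 29.2% higher after quantile normalization. The same 5 macrophage genes, and no others of the 10, had groups that did not overlap; of all kept genes, 10.2% were lower and 21.7% higher without overlap. The median log2 difference was -0.73 over the 9 kept macrophage genes and 0.36 over all kept genes. No macrophage gene was called higher (limma), and 1, Cd36, was higher at an unadjusted p under 0.05. In bulk tissue, fewer cells of a type and less RNA per cell cannot be told apart.

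**Figure D1:**
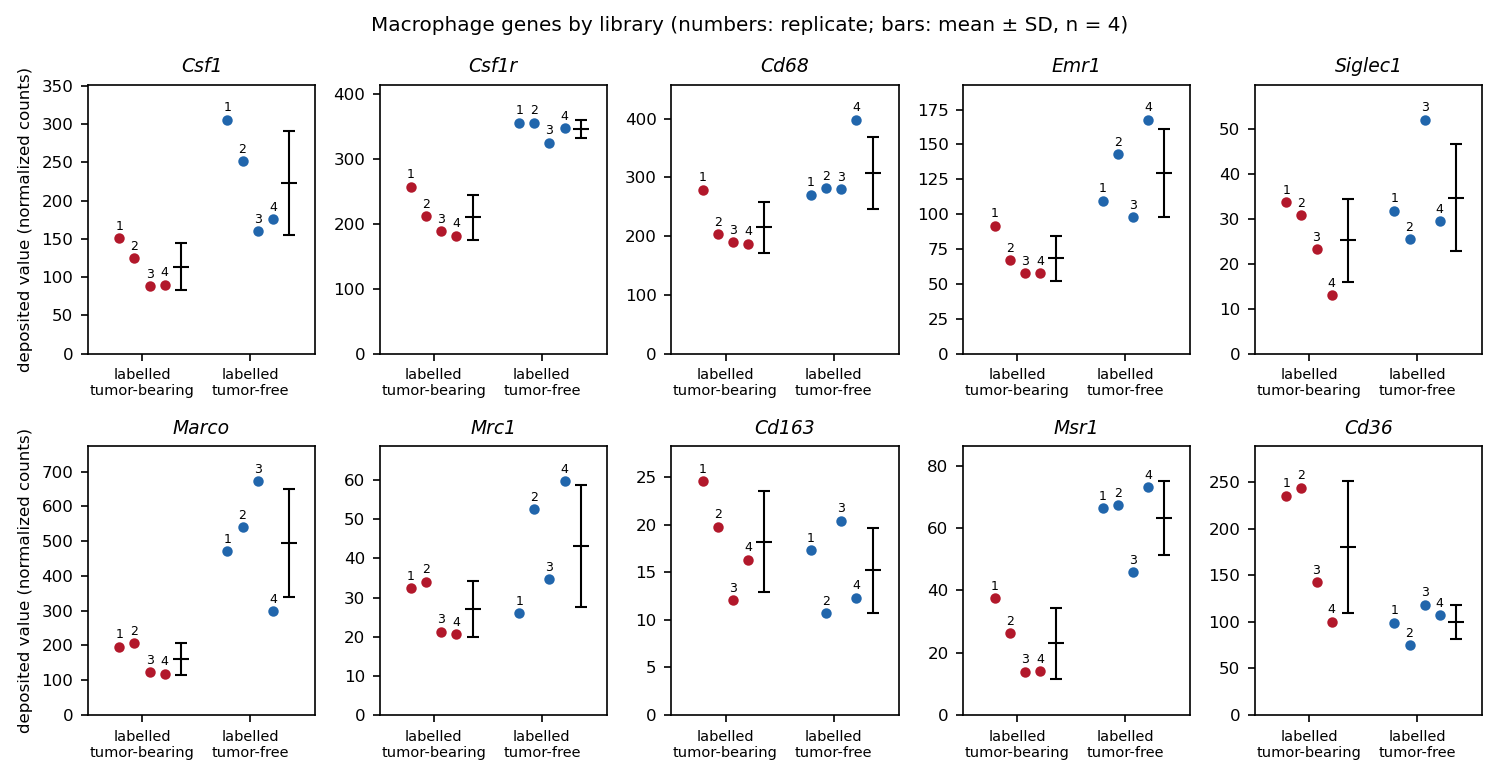
Deposited values (normalized counts, linear axis from 0) of the 10 macrophage genes in each library, with labelled tumor-bearing on the left and labelled tumor-free on the right of each panel. Points are libraries with their replicate number, and bars show mean ± SD of 4 libraries. The groups do not overlap for Csf1, Csf1r, Emr1, Marco and Msr1.

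The 250 bases before 1 annotated transcript start are given for 3 genes, from RefSeq promoters of build GRCm38.p6: Marco and Csf1, which fell, and Cd36, with a positive difference. The Marco and Csf1 windows adjoin the outer end of their genes, whereas that of Cd36 lies inside its gene (chr5:17781690-17888959), before an internal transcript start. Promoters of 6 of the 10 genes were matched. They were searched on both strands for GAGGAA (the core of the site of PU.1, the factor that sets up macrophage genes), CACGTG (the E-box that Myc can bind), TGANTCA (AP-1) and TATAAA (the TATA box), with matches in capitals.
Marco, chr1:120505025-120505274, minus strand: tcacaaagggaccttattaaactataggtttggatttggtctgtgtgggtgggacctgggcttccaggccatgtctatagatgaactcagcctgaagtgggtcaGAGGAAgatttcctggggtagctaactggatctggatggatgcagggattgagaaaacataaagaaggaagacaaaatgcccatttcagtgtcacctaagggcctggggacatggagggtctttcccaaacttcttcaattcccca
Csf1, chr3:107760470-107760719, minus strand: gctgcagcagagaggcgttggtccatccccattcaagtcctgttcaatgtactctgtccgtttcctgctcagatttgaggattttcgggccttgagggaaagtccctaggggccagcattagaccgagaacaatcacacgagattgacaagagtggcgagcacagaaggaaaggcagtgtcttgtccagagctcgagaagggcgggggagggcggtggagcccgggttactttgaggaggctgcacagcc
Cd36, chr5:17835897-17836146, minus strand: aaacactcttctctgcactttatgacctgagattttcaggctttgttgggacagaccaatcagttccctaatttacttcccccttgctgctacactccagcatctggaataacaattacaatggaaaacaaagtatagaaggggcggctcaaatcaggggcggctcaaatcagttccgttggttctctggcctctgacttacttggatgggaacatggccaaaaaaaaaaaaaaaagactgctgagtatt

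Marco held 1 match to GAGGAA, 146 to 141 bases before the start, and Csf1 and Cd36 held none of the 4 motifs. The Mrc1 window held 3 matches to GAGGAA, the Cd68 window 1 match to GAGGAA and 2 to TGANTCA, and the Cd163 window none, and no matches overlapped. Of all 32851 RefSeq promoter windows of this length, 23.3% held GAGGAA, 6.02% CACGTG, 6.75% TGANTCA and 12.4% TATAAA. No E-box was found in these 6 windows, which says only that those letters are not in them.

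Csf1, the growth factor on which macrophages depend, read 151, 125, 88.0 and 90.2 in replicates 1 to 4 labelled tumor-bearing, against 306, 251, 160 and 175 in those labelled tumor-free. Every library labelled tumor-bearing lay below every library labelled tumor-free, though the highest library labelled tumor-bearing (151) and the lowest labelled tumor-free (160) were close. Mean Csf1 was 114 ± 30.3 in libraries labelled tumor-bearing and 223 ± 68.1 in libraries labelled tumor-free (SD, n = 4 each), 1.94-fold higher in those labelled tumor-free (log2 difference -0.95, SE 0.30, 95% interval -1.62 to -0.29, limma adjusted p = 0.0324). The call held without labelled tumor-free replicate 3 (-1.10, adjusted p = 0.0088) or 4, and was lost without any other library (adjusted p from 0.0551 to 0.0946).

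Csf1r, the tyrosine kinase receptor for Csf1 on monocytes and macrophages, had the tightest values of the set in the libraries labelled tumor-free. It read 257, 212, 189 and 182 in the libraries labelled tumor-bearing, against 356, 356, 325 and 348 in those labelled tumor-free. The groups were well apart, and labelled tumor-free replicate 3 lay with its own group. Mean Csf1r was 210 ± 34.1 in libraries labelled tumor-bearing and 346 ± 14.5 in libraries labelled tumor-free (SD, n = 4 each; log2 difference -0.73, SE 0.20, 95% interval -1.18 to -0.29, limma adjusted p = 0.0257). Without labelled tumor-free replicate 3 the difference was -0.76 (adjusted p = 0.00682). The call was lost without labelled tumor-bearing replicate 2, 3 or 4 (adjusted p = 0.0678, 0.0576 and 0.0627) and without labelled tumor-free replicate 1 or 2 (0.0618 and 0.0816).

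Il34, the other ligand of the Csf1 receptor, lay below the filter at 13.8 ± 5.7 in the libraries labelled tumor-bearing and 8.5 ± 4.1 in those labelled tumor-free (SD, n = 4 each), and was not tested.

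Emr1 encodes F4/80, an adhesion G protein-coupled receptor of mature mouse macrophages. It read 91.8, 67.0, 57.5 and 57.6 in the libraries labelled tumor-bearing, against 110, 143, 97.9 and 168 in those labelled tumor-free. The groups did not overlap, with labelled tumor-bearing replicate 1 and labelled tumor-free replicate 3 nearest to each other. Emr1 averaged 68.5 ± 16.2 in libraries labelled tumor-bearing and 130 ± 31.9 in libraries labelled tumor-free (SD, n = 4 each; log2 difference -0.91, SE 0.27, 95% interval -1.52 to -0.30, limma adjusted p = 0.0292). The difference was -1.03 without labelled tumor-free replicate 3 (adjusted p = 0.00843), and the call remained without labelled tumor-bearing replicate 1. It was lost without any other library (adjusted p from 0.0572 to 0.0875).

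Cd68, a lysosomal glycoprotein found in all macrophages and in other phagocytes, was not called. It read 279, 203, 190 and 187 in the libraries labelled tumor-bearing, against 270, 281, 280 and 398 in those labelled tumor-free. The groups overlapped through labelled tumor-bearing replicate 1 alone, which lay above labelled tumor-free replicate 1. The log2 difference was -0.52 (SE 0.23, 95% interval -1.03 to 0.00072, limma adjusted p = 0.0925), and scaling on the reference genes turned it to 0.027. With labelled tumor-free replicate 3 left out the difference was -0.55 (limma adjusted p = 0.0611).

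Siglec1, the marker shared by subcapsular and medullary sinus macrophages, was low throughout. It read 33.6, 30.7, 23.2 and 13.0 in the libraries labelled tumor-bearing, against 31.8, 25.5, 52.0 and 29.4 in those labelled tumor-free. The groups overlapped, and labelled tumor-free replicate 3 was the highest of all 8 libraries. The log2 difference was -0.48 (SE 0.35, 95% interval -1.26 to 0.31, limma adjusted p = 0.276), -0.27 without that library (adjusted p = 0.505) and 0.046 after scaling on the reference genes. Its lowest value, 13.0 in labelled tumor-bearing replicate 4, stood for 12 counts, for which the exact Poisson interval of counting error alone runs from 6.7 to 22.8 on the deposited scale.

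Marco, a class A scavenger receptor of medullary sinus macrophages that is also made by sinus-lining cells, had the largest difference of the 10 genes with all 8 libraries, but not without labelled tumor-free replicate 3 (-1.44, against -1.66 for Msr1) or labelled tumor-bearing replicate 1 (-1.72, against -1.79 for Msr1). It read 197, 206, 122 and 118 in the libraries labelled tumor-bearing, against 470, 541, 673 and 299 in those labelled tumor-free. Its groups were separated by a wide gap, between 206 and 299. Marco averaged 161 ± 47.0 in libraries labelled tumor-bearing and 496 ± 156 in libraries labelled tumor-free (SD, n = 4 each), 3.04-fold higher in those labelled tumor-free (log2 difference -1.60, SE 0.31, 95% interval -2.30 to -0.91, limma adjusted p = 0.018). Labelled tumor-free replicate 3 had the most Marco, and without it the difference was -1.44 (adjusted p = 0.00277). The call was lost without labelled tumor-bearing replicate 3 or 4 (adjusted p = 0.0538 and 0.0569) or labelled tumor-free replicate 2 (0.0708).

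Mrc1 and Cd163 mark medullary and other resident tissue macrophages. Mrc1, the mannose receptor, which lymphatic endothelium also carries, read 32.3, 34.0, 21.3 and 20.7 in the libraries labelled tumor-bearing, against 26.0, 52.6, 34.7 and 59.8 in those labelled tumor-free. The libraries labelled tumor-free were uneven, with replicates 2 and 4 high and replicates 1 and 3 within or next to the range of the libraries labelled tumor-bearing. The log2 difference was -0.62 (SE 0.33, 95% interval -1.35 to 0.11, limma adjusted p = 0.144). Leaving out labelled tumor-free replicate 3 gave -0.70 (limma adjusted p = 0.111). Cd163, the receptor for haemoglobin bound to haptoglobin, read 24.6, 19.8, 12.1 and 16.3 in the libraries labelled tumor-bearing, against 17.3, 10.7, 20.4 and 12.3 in those labelled tumor-free. These values stood for 13 to 19 counts in libraries labelled tumor-bearing and 13 to 20 in those labelled tumor-free, the groups overlapped, and only 1 library of each group reached the filter. With no filter the log2 difference of Cd163 was 0.24 (SE 0.31, limma adjusted p = 0.565).

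Msr1, the class A scavenger receptor related to Marco, read 37.5, 26.3, 13.9 and 14.1 in the libraries labelled tumor-bearing, against 66.4, 67.4, 45.9 and 73.0 in those labelled tumor-free. The groups did not overlap, and labelled tumor-free replicate 3 was the lowest of its group, the reverse of its place for Marco. Msr1 averaged 23.0 ± 11.3 in libraries labelled tumor-bearing and 63.2 ± 11.9 in libraries labelled tumor-free (SD, n = 4 each), 2.87-fold higher in those labelled tumor-free (log2 difference -1.52, SE 0.35, 95% interval -2.31 to -0.73, limma adjusted p = 0.0233). Only 2 libraries labelled tumor-bearing reached the filter value of 20, so that Msr1 was kept through the libraries labelled tumor-free. The difference was -1.66 without labelled tumor-free replicate 3 (adjusted p = 0.00384). The call was lost without labelled tumor-bearing replicate 2, 3 or 4 (adjusted p = 0.0607, 0.0538 and 0.0569) and without labelled tumor-free replicate 1 or 2 (0.0536 and 0.08).

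Cd36, a class B scavenger receptor for fatty acids and oxidized lipoproteins that endothelial cells and platelets also carry, was the single kept gene of the set with a positive difference. It read 235, 244, 143 and 100 in the libraries labelled tumor-bearing, against 99.1, 74.8, 118 and 107 in those labelled tumor-free. Labelled tumor-bearing replicate 4 lay among the libraries labelled tumor-free and replicates 1 to 3 above all of them. The log2 difference was 0.78 (SE 0.33, 95% interval 0.040 to 1.51, limma adjusted p = 0.0814), and Cd36 was called higher only after scaling on the reference genes (1.32, adjusted p = 0.0144). It was 0.86 without labelled tumor-free replicate 3 (limma adjusted p = 0.0544).

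**Figure D2:**
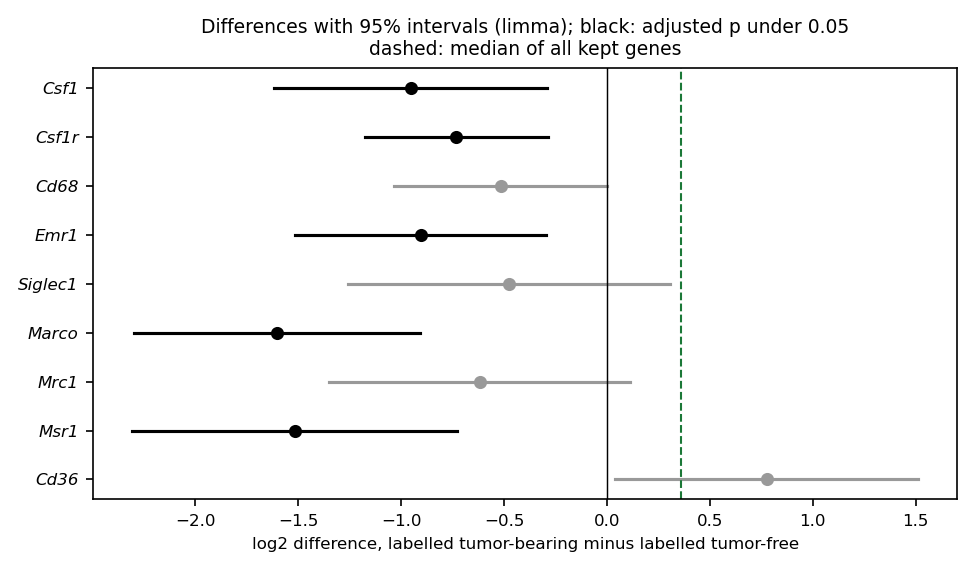
Log2 difference (labelled tumor-bearing minus labelled tumor-free) of the 9 kept macrophage genes, with 95% intervals from limma; black marks an adjusted p under 0.05, and the dashed line is the median of all 609 kept genes, 0.36. The point estimates of 8 genes lie below 0 and that of Cd36 above the dashed line.

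The genes differed in which library was highest. In the group labelled tumor-free, the sinus markers Siglec1 and Marco were highest in replicate 3, as were Cd163 and Cd36, whereas Emr1, Cd68, Mrc1 and Msr1 were highest in replicate 4. Replicate 3 was the highest library of that group in 60.4% of all kept genes and replicate 4 in 26.4%. In the group labelled tumor-bearing, replicates 1 and 2 lay above replicates 3 and 4 for all 10 genes, as they did for 73.2% of all kept genes. With libraries scaled to the same total this held for 7 of the 10 genes and 28.6% of kept genes. Labelled tumor-free replicate 4 also read highest of the 8 libraries for Lyve1, a lymphatic endothelial and macrophage hyaluronan receptor (71.1). The same held for the stromal genes Col1a1 (234), Col3a1 (209) and Fn1 (156). Ccl21a (441), Ccl19 (117) and Pdgfrb (14.2) were highest in that library within the group labelled tumor-free, but not among all 8. Cxcl13 (54.1) was not highest there by either count. Thy1 (999), which is also a T cell gene, was the lowest of the 8, as was the summed level of the T cell genes (5078). The part of lymphatic endothelial and stromal cells in the values of Emr1, Cd68, Mrc1 and Msr1 was not tested.

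Ratios of value + 1 within a library, which its scaling factor hardly moves, were used to ask whether the genes changed unequally. Each of the other 9 genes was set over Csf1r, Siglec1 over Emr1, and Marco over Siglec1, giving 11 ratios, and each difference between groups was tested with a two-sided exact permutation test (70 assignments of the labels). The smallest p this design allows is 0.0286, and none of the 11 ratios passed 0.05 after Benjamini-Hochberg adjustment over the 11, while 3 did so before it. Even that smallest p stays above 0.05 after adjustment unless most of the 11 ratios reach it. The adjusted result therefore cannot show that the genes changed equally.

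Marco over Siglec1 had log2 ratios of 2.51, 2.71, 2.35 and 3.09 in the libraries labelled tumor-bearing, against 3.85, 4.36, 3.67 and 3.30 in those labelled tumor-free. All 4 libraries labelled tumor-bearing had a lower ratio than the lowest one labelled tumor-free (difference of means -1.13, exact permutation p = 0.0286, adjusted p = 0.105). Siglec1 in this ratio rests on few counts, 12 to 28 in libraries labelled tumor-bearing and 31 to 51 in those labelled tumor-free. Cd36 over Csf1r was higher without overlap (-0.30 ± 0.45 in libraries labelled tumor-bearing against -1.80 ± 0.33 in libraries labelled tumor-free, SD, n = 4 each, difference 1.51, exact permutation p = 0.0286, adjusted p = 0.105). Cd163 over Csf1r was higher without overlap too (-3.49 ± 0.25 in libraries labelled tumor-bearing against -4.46 ± 0.45 in libraries labelled tumor-free, SD, n = 4 each, difference 0.98, with the same exact permutation p and adjusted p). Most of this difference came from Csf1r (log2 difference -0.73), since Cd163 alone differed by 0.24 with no filter. Cd163 stood for only 13 to 19 counts in libraries labelled tumor-bearing and 13 to 20 in those labelled tumor-free.

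Siglec1 over Emr1, the sinus lectin over F4/80, which subcapsular sinus macrophages lack, did not separate the groups. Its log2 values were -1.42, -1.10, -1.27 and -2.06 in the libraries labelled tumor-bearing, against -1.76, -2.44, -0.90 and -2.47 in those labelled tumor-free. Labelled tumor-free replicate 3 had the highest ratio of all 8, and the groups overlapped (difference 0.43, exact permutation p = 0.343, adjusted p = 0.471). Marco and Msr1 over Csf1r differed by -0.87 and -0.79 (exact permutation p = 0.0571 each, adjusted p = 0.126). For Csf1, Cd68, Emr1, Siglec1 and Mrc1 over Csf1r the differences lay between -0.22 and 0.26 (exact permutation p from 0.171 to 0.714), at a smallest adjusted p of 0.314.

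**Figure D3:**
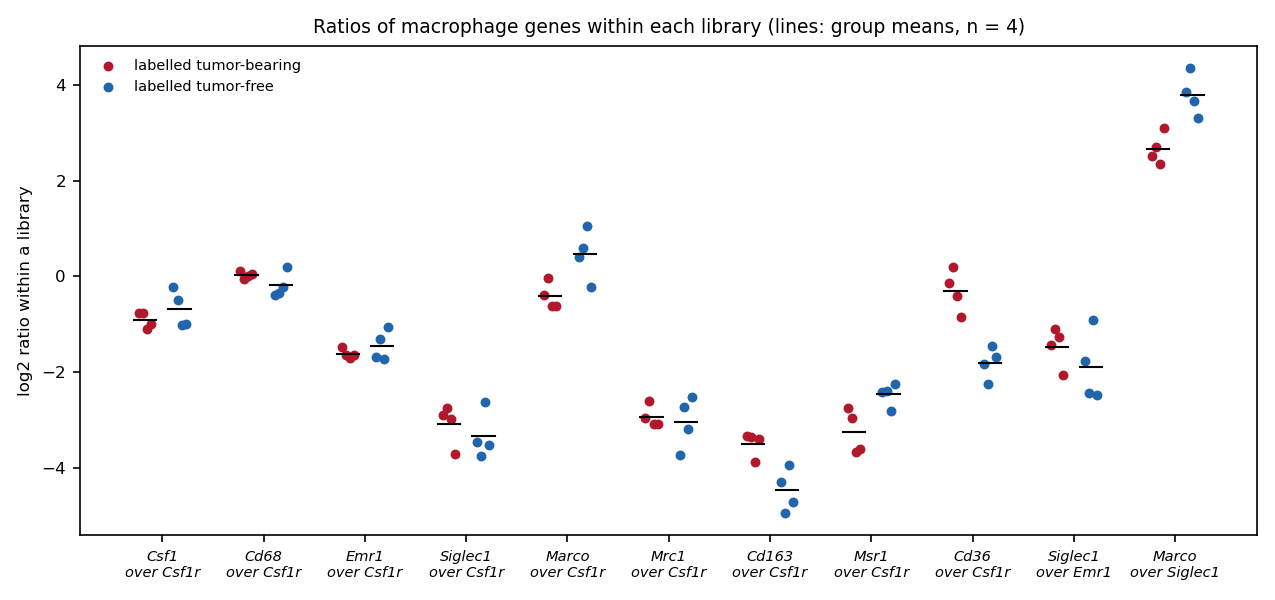
Log2 ratio of gene pairs within each library; points are libraries, red for labelled tumor-bearing (left of each pair) and blue for labelled tumor-free, and black lines are means of 4. The groups do not overlap for Cd36 and Cd163 over Csf1r and for Marco over Siglec1.

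The sign of several differences depended on how libraries were scaled. The median log2 difference of all kept genes was 0.36 in the deposited values, 0.083 after quantile normalization, 0.12 and 0.22 with libraries brought to 1 median or 1 total, and 0.91 after scaling on the reference genes. Relative to that median, Marco lay between -2.06 and -1.97 under these 5 scalings, Msr1 between -1.90 and -1.84, Csf1 between -1.44 and -1.32, Emr1 between -1.27 and -1.21 and Csf1r between -1.18 and -1.09. Mrc1, Cd68 and Siglec1 lay between -0.996 and -0.71, and Cd36 between 0.41 and 0.46. Bringing libraries to 1 median, 1 total or the reference genes multiplies each library by 1 factor. That shifts all genes nearly alike, so values relative to the median could hardly move. Only quantile normalization could move them freely, and the narrow ranges are therefore no test of robustness to scaling. Marco and Msr1 were called lower under all 5 scalings, and Csf1, Emr1 and Csf1r were not called after scaling on the reference genes (limma adjusted p = 0.21, 0.158 and 0.418). Cd68 was called lower with 1 median, 1 total or quantile normalization (adjusted p = 0.0379, 0.0252 and 0.036), and Siglec1 with 1 median (0.037).

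**Figure D4:**
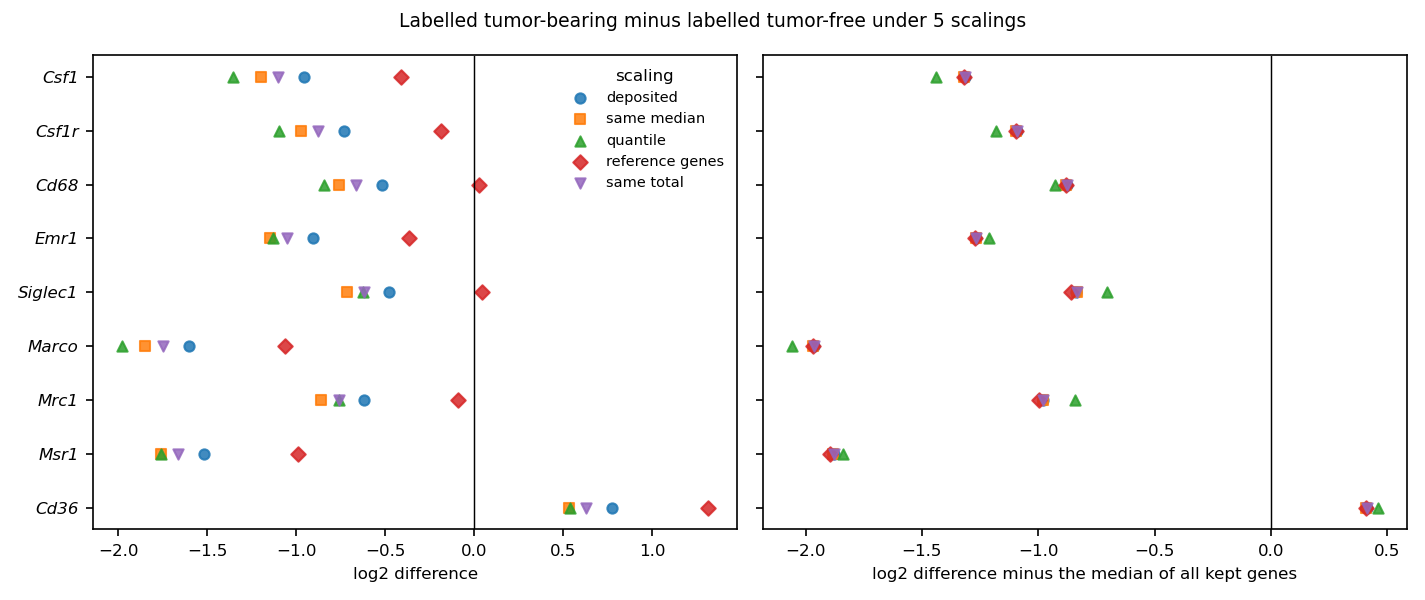
Log2 difference (labelled tumor-bearing minus labelled tumor-free) of the 9 kept macrophage genes under 5 scalings, as such on the left and after subtracting the median of all kept genes on the right. Scaling on the reference genes moves every gene to the right on the left panel, and Cd68 and Siglec1 cross 0.

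Of 8 genes of signals that maintain sinus macrophages, 7 were kept, and 4 rose and 0 fell (median log2 difference 1.16, limma). Over all kept genes 27.6% were called higher and the median was 0.36. At an unadjusted p under 0.05 still 0 fell, and with libraries scaled to the same median 1 did. Lymphotoxin alpha, Lta, averaged 602 ± 97.4 in the libraries labelled tumor-bearing and 230 ± 168 in those labelled tumor-free (SD, n = 4 each; log2 difference 1.63, SE 0.43, limma adjusted p = 0.0251). Tnfsf11, the gene of RANK ligand, rose by 1.27 (adjusted p = 0.0324), lymphotoxin beta, Ltb, by 1.16 (0.0354) and the receptor gene Tnfrsf1a by 1.05 (0.0265). Ltbr, the lymphotoxin beta receptor carried by stromal and myeloid cells, had a log2 difference of -0.45 (adjusted p = 0.225). Lymphocytes make both lymphotoxins, and all 9 measured T cell markers rose too, with summed levels of 33134 to 39804 in the libraries labelled tumor-bearing and 5078 to 29834 in those labelled tumor-free. The part of T cells in these values was not tested.

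Other myeloid genes moved in both directions. Of 13 kept genes of the other macrophage list, 3 fell and 2 rose, with a median of -0.12. Over all kept genes 10.7% were called lower and 27.6% higher, with a median of 0.36. Chil3, a chitinase-like protein of alternatively activated macrophages, fell by 1.86 (SE 0.37, limma adjusted p = 0.018), Fcgr1, the high-affinity Fc receptor, by 1.75 (adjusted p = 0.0173) and the galectin gene Lgals3 by 0.75 (adjusted p = 0.0282). Cd84, which lymphocytes also carry, rose by 1.48 (adjusted p = 0.0239), and Apoe by 0.78 (adjusted p = 0.0369). Scaling to the same median or total or quantile normalization gave 6 that fell, where 16.9%, 17.9% and 19.9% of all kept genes fell. Scaling on the reference genes gave 2 that fell and 5 that rose, beside 6.24% and 59.6% of all kept genes. Without labelled tumor-bearing replicate 2, 3 or 4 or labelled tumor-free replicate 2, none fell (limma), beside 0% to 1.81% of all kept genes. Of 11 other scavenger and uptake receptors, 2 rose and 0 fell (limma): Cd6, a scavenger-type receptor of T cells (1.61, adjusted p = 0.0253), and Cxcl16, a membrane chemokine that binds oxidized lipoprotein (1.07, adjusted p = 0.0253). At an unadjusted p under 0.05 still 0 fell, and with libraries scaled to the same total 3 did.

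Of 7 kept myeloid transcription factors, Cebpb, a factor of monocytes and macrophages, fell by 1.96 (SE 0.30, limma adjusted p = 0.00987) and Runx1, shared by myeloid cells and T cells, rose by 0.91 (adjusted p = 0.0265). Of 5 kept growth factors and receptors of myeloid cells, 1 rose, Flt3l, the ligand that drives dendritic cell development (1.67, limma adjusted p = 0.0251). The median of that list was 0.51. These counts stand beside 10.7% of all kept genes called lower and 27.6% called higher. Cebpb lost its call without labelled tumor-bearing replicate 3. In these 5 lists no gene rose (limma, adjusted p) once any library labelled tumor-bearing or labelled tumor-free replicate 1 or 2 was left out. Of all kept genes, 0% to 1.81% rose in those fits.

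The calls among markers of the other cell types stand beside 27.6% of all kept genes called higher and 10.7% lower. Of 5 dendritic cell genes 3 rose (Xcr1, and Itgae and Ccr7, which T cells also carry), and of 8 B cell genes 2 rose (Cr2 and Blk), a share near that of all kept genes. Of 6 kept blood endothelial genes 2 rose (Glycam1 and Pecam1), and of 2 measured lymphatic endothelial genes 1, Ccl21a (0.77, limma adjusted p = 0.0271). Lyve1 had a log2 difference of -0.84 (adjusted p = 0.195). Of 4 kept neutrophil genes 1 fell, Fpr2 (-1.41, limma adjusted p = 0.0233). Among libraries labelled tumor-bearing only replicate 1 (25.9) reached the filter value of 20, so Fpr2 was kept through the libraries labelled tumor-free. None of 4 monocyte genes was called (limma), the largest difference being that of Ccr2 (0.90, adjusted p = 0.0505). Of 6 kept stromal genes 1, Thy1, which is also a T cell gene, rose. Other scalings, filters and settings and leaving out each library gave 18 alternative fits. Calls were lost in 8 of them for Pecam1 and Ccl21a, 7 for Ccr7 and Blk, and 6 for Itgae, Cr2 and Glycam1. Xcr1 lost its call in 6 of 17 and Fpr2 in 5 of 17. The 9 T cell markers, Thy1 among them, lost theirs in 4 to 6 of 18. Summed levels of the neutrophil list were 136 to 288 in the libraries labelled tumor-bearing and 202 to 413 in those labelled tumor-free, those of the monocyte list 13534 to 18576 in libraries labelled tumor-bearing and 11046 to 14742 in those labelled tumor-free. Those of the dendritic cell list were 5658 to 6804 in libraries labelled tumor-bearing and 2093 to 5366 in those labelled tumor-free, most of it from Ccr7 (4457 to 5426 in libraries labelled tumor-bearing, 1826 to 4282 in those labelled tumor-free) and Itgae. Of the 20 reference genes of the panel, 8 fell, with a median log2 difference of -0.51. No marker was listed at 0 in any library, and the part of these cells in the macrophage values was not tested.

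The kept gene most like each macrophage gene was sought over the 8 libraries, by the root mean square difference between log2 profiles centred on their own means. This is a description, since the libraries share the group difference. Marco was nearest to Fpr2, a formyl peptide receptor of neutrophils and macrophages (0.33), and Msr1 to the C-type lectin gene Clec4n (0.21), where the median over all kept genes was 1.07 and 1.06. Fpr2, like Msr1, passed the filter only through the libraries labelled tumor-free. Csf1r was nearest to Lgals3 (0.13), Csf1 to Ly86, a partner of the RP105 receptor on B cells and myeloid cells (0.23), and Siglec1 to Cmklr1, the chemerin receptor (0.26). Mrc1 was nearest to the complement gene C1qa (0.23). Emr1 and Cd68 were nearest to genes of general use, Ppia (0.14) and the proteasome gene Psma2 (0.10), and Cd36 to Klrg1, a receptor of T and natural killer cells (0.20). Among the macrophage genes themselves the closest pair was Csf1r and Cd68 (0.20), followed by Csf1r and Emr1 (0.22) and Cd68 and Emr1 (0.24).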

How the data were processed

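Total RNA of mouse lymph nodes was counted with a NanoString panel, per the labels. The authors deposited signal values (linear, normalized counts); the sources used here name no software, scaling genes or background subtraction. All values of a library lay within 0.1 of a step of whole multiples of 1 factor (0.822 to 1.29), so totals of 659771 to 819257 counts per library stand behind them. limma 3.58.1 (R 4.3.3; lmFit, then eBayes with a trend; two-sided) was run on log2(value + 1), with group as the only term, all 8 libraries and 609 kept genes in 1 fit; this understates the change of low genes. On simulated data with 609 genes limma recovered 29.9% at 1.5-fold, 71.6% at 2-fold and 97% at 4-fold, and called 1.71% of unchanged genes. The simulation drew every gene independently, with no shift of a whole library. In the data, labelled tumor-free replicate 3 was highest of its group in 60.4% of kept genes, so the simulated shares may not hold here. Members, lists, ratios and the naming rule were chosen with earlier results of these data known. The naming rule takes all 10 members, the 2 called genes of largest change (or, with none called, the 1 largest) in each of 5 myeloid and niche lists, any such list of 4 or fewer kept genes whole, and the nearest gene by profile; Myc, Ltb, Tnfrsf1a, Ltbr, Lgals3, Cd84, Apoe, Il34, Col1a1 and the genes of other cell types were named after their values were seen. Alternatives were 4 scalings, 2 pseudocounts, 2 filters, no trend, a replicate block and leaving out each library. No count model was run. Ratios were tested with 2-sided exact permutation tests. Residuals of same-numbered libraries correlated at 0.55, 0.028, 0.014 and -0.037 in replicates 1 to 4. Only in replicate 1 was the same-numbered library also the closest one of the other group, so pairing by number was not used. Symbols were matched to RefSeq (GRCm38.p6) for positions and promoters.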

Additional observations from a re-analysis of the deposited data

Results flagged for a closer look

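Cd68 in labelled tumor-free replicate 4 read 398, against 270 to 281 in the other libraries of that group, a gap of 0.916 of the group's range. It was the single one among 20 groups of 4 libraries in which 1 library lay that far from the rest, and chance gives about 1 in 20.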

How the results depend on the processing

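Of the macrophage genes, 5 were called lower in the deposited values. The count was 2 after scaling on the reference genes, 3 with the filter at 100 (which left Emr1 and Msr1 untested), 3 with the replicate block, and from 0 to 5 when 1 library was left out. It was 7 with libraries scaled to the same median (adding Cd68 and Siglec1), and 6 (adding Cd68) with the same total and with quantile normalization. It was 0 in limma without labelled tumor-bearing replicate 3 or 4 or labelled tumor-free replicate 2, with 5 at an unadjusted p under 0.05 in each. The replicate block ended the calls of Csf1r (adjusted p = 0.0573) and Emr1 (0.0514). The count called higher was 0, and 1 (Cd36) after scaling on the reference genes, and stayed at 0 when any library was left out. That scaling reversed Cd68 (0.027), Siglec1 (0.046), Psma2 (0.056) and Cmklr1 (0.21). Over all kept genes, 65 were lower and 168 higher in the deposited values. Lower calls numbered 103 and 109 with libraries scaled to the same median and the same total, 121 after quantile normalization, 38 after reference-gene scaling and 0 to 93 without 1 library. Higher calls numbered 363 after reference-gene scaling and 0 to 264 without 1 library. The planned count models were not run, because a step search from the smallest value finds whole counts in 1 column of 8. That smallest value stood for 1 count in labelled tumor-bearing replicate 4 and for 2 or 3 in every other library. With the factors used here, 100% of the values of every library lay at whole counts, within 0.1 of a step. Leaving out a library or pairing by number cannot bring the exact permutation test of a ratio below 0.05 after adjustment. Low counts limit Siglec1, Mrc1, Cd163 and Msr1.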
